A study of Mus musculus with 8 samples.

Results

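The genes described here are the cytosolic and mitochondrial chaperones of mouse small intestinal epithelium: heat shock proteins of the HSP70, HSP90, HSP110, HSP60 and small families, the J proteins and BAG factors that drive the HSP70 cycle, the subunits of the cytosolic chaperonin CCT, HSP90 co-chaperones, and the heat shock factors Hsf1 and Hsf2. They are a list of gene symbols that uses no measured value, although the list was drawn up with earlier results of these data known, and 38 of 39 named genes had a row among the 37620 Ensembl genes of each library. Hspa14 was not matched to a gene ID and was not analysed here. RNA was sequenced from flow-sorted cells of the epithelium in 8 libraries. CD24Mid cells (also called CD24low by the submitters), with intermediate surface CD24, gave 4 of them (replicates 1, 3, 5 and 7), and CD24Neg cells, without CD24, gave the other 4 (replicates 2, 4, 6 and 8). Both groups were depleted of cells that carry the leukocyte antigen CD45 and of cells that bind the lectin Ulex europaeus agglutinin I (UEA), which marks secretory cells. The submitters called the libraries of a group biological replicates, and the labels name no strain, genotype, age or treatment. The comparison asked how expression differs as intestinal epithelial cells differentiate.

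Chaperones bind unfolded stretches of other proteins and use ATP to release them, which lets newly made or damaged proteins fold. J proteins hand clients to HSP70 and trigger its ATPase, BAG and HSP110 proteins swap its nucleotide, and HSP90 finishes signalling proteins such as kinases and steroid receptors. CCT folds actin and tubulin in a closed chamber, as HSP60 and HSP10 (Hspd1 and Hspe1) do for matrix proteins in mitochondria. Some of these genes are constitutive, while others are strongly induced by Hsf1 when unfolded protein builds up, as in heat. In the gut, cells divide in the crypts and are then carried along the villi as they differentiate.

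Reads unique to 1 gene numbered 15473071 to 17537818 per library in CD24Mid and 11340782 to 18928233 in CD24Neg. Levels are given as CPM, the unique count relative to library size after TMM normalisation (a scaling between libraries), or as fragments per kb of effective length, on the same scaling, from the deposited estimates that also share out ambiguous reads. All 6 crypt stem cell markers and all 6 dividing cell markers were higher in CD24Mid, with summed levels of 3123 to 4119 CPM and 1129 to 1738 CPM, against 127 to 360 CPM and 139 to 308 CPM in CD24Neg. All 7 enterocyte markers were higher in CD24Neg, with a sum of 667 to 1160 CPM in CD24Mid against 21030 to 37203 CPM in CD24Neg. Markers of gated cells remained: 5 goblet genes summed to 2880 to 4251 CPM in CD24Mid and 9325 to 26155 CPM in CD24Neg, and 6 T lymphocyte genes to 6.09 to 17 CPM in CD24Mid and 29.2 to 503 CPM in CD24Neg. The T lymphocyte sum was highest in CD24Neg replicates 2 and 8, at 503 and 379 CPM. Of 3 tested plasma and B cell genes, 2 were higher in CD24Mid and 1 was higher in CD24Neg. The immunoglobulin gene Igkc stood at 401 ± 141 CPM in CD24Mid, against 20 ± 6.86 CPM in CD24Neg (20.2-fold, edgeR adjusted p = 1.72e-06). The B lineage gene Cd79a stood at 3.52 ± 0.774 CPM in CD24Mid, against 0.286 ± 0.2 CPM in CD24Neg (12.2-fold, edgeR adjusted p = 1.33e-05). Xbp1 went the other way, at 146 ± 17.6 CPM in CD24Mid, against 213 ± 29.1 CPM in CD24Neg (1.46-fold, edgeR adjusted p = 0.00302). Of 4 tested myeloid genes, 2 were higher in CD24Mid (Lyz2 by 3.17-fold and Csf1r by 3.8-fold), and the 5 matched summed to 20.8 to 35 CPM in CD24Mid and 12.1 to 25.3 CPM in CD24Neg. Of 6 enteroendocrine genes, 4 were higher in CD24Mid, with sums of 253 to 557 CPM in CD24Mid and 75.6 to 111 CPM in CD24Neg. Mitochondrially encoded genes took 8.03% to 9.18% of unique reads in CD24Mid and 27.7% to 37.0% in CD24Neg. The part of these markers and reads in the chaperone results was not tested. In bulk samples, fewer cells of a type and less RNA per cell cannot be told apart.

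Most chaperone genes were higher in CD24Mid. Of 36 that passed the filter on low counts, 29 were higher in CD24Mid and 2 in CD24Neg, and 5 did not pass (edgeR quasi-likelihood test, Benjamini-Hochberg adjusted p under 0.05). Over all 12840 genes tested, 69.8% were called, 35.5% higher in CD24Mid and 34.3% higher in CD24Neg. The median log2 fold change, CD24Mid over CD24Neg, was 1.01 for the chaperones and 0.015 for all genes. The CD24Mid and CD24Neg libraries did not overlap for 28 of the 36, of which 26 were higher in CD24Mid, against 64.4% of all genes tested (33% higher in CD24Mid and 31.4% higher in CD24Neg). The chaperones took 1.05% to 1.21% of unique reads in CD24Mid and 0.27% to 0.308% in CD24Neg, a share that also moves with the mitochondrially encoded reads. Scaling set where zero lay: the median of all genes was 0.237 with upper-quartile normalisation and 0.956 on unscaled library totals. The chaperone median lay 0.99 above that of all genes under each of these 3 scalings. That is no separate check, because a change of scaling shifts all genes by about the same amount. With upper-quartile normalisation, 30 members were higher in CD24Mid and 1 in CD24Neg, beside 5594 and 3510 of the 12840 genes tested. On unscaled totals the counts were 35 and 1, beside 69.8% and 12.9% of all genes tested.

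**Figure D1:**
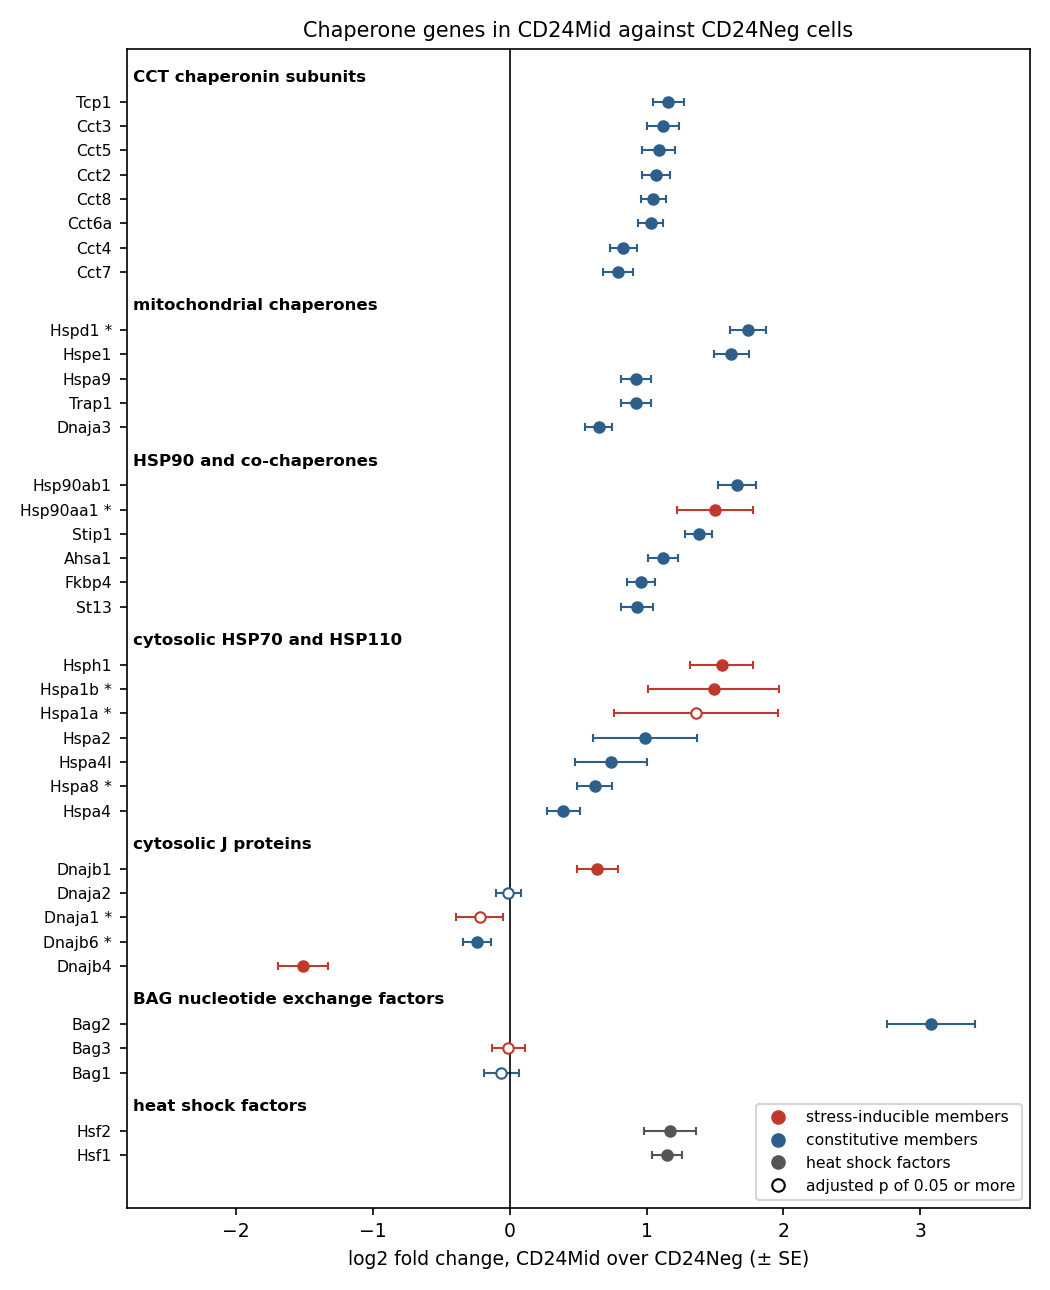
Log2 fold change of CD24Mid over CD24Neg for the 36 chaperone genes tested, by role, with standard errors as bars; filled points passed an adjusted p of 0.05 and open points did not. Genes with a star were fitted with limma on the deposited estimates because copies share their reads, the others with edgeR on unique counts; 29 filled points lie to the right of 0 and those of Dnajb4 and Dnajb6 to the left.

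All 8 subunits of CCT, the cytosolic chaperonin that folds actin and tubulin, were higher in CD24Mid, by 1.72-fold (Cct7) to 2.23-fold (Tcp1). The share of all genes tested that were higher in CD24Mid was 35.5%. Tcp1, the alpha subunit, had 254, 290, 264 and 257 CPM in CD24Mid replicates 1, 3, 5 and 7, against 136, 120, 104 and 118 CPM in CD24Neg replicates 2, 4, 6 and 8. This replicate order is kept below. Its groups did not overlap, and the log2 fold change was 1.16 ± 0.11 (SE; edgeR adjusted p = 4.34e-06). Cct8, the theta subunit, was the steadiest, with 213, 234, 213 and 222 CPM in CD24Mid and 110, 107, 104 and 104 CPM in CD24Neg. It was 2.07-fold higher in CD24Mid (edgeR adjusted p = 2.02e-06). The smallest change was that of Cct7, the eta subunit, at 214 ± 22.8 CPM in CD24Mid, against 124 ± 11.6 CPM in CD24Neg (SD, n = 4 each; edgeR adjusted p = 0.000108). For each of the 8 subunits, the lowest CD24Mid library lay above the highest CD24Neg library, as it did for 33% of all genes tested. The log2 fold changes of the subunits spanned 0.79 to 1.16, with a median of 1.06.

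A CCT ring holds its subunits in equal number, but their transcripts were unequal per length. The median subunit stood at 146 to 173 fragments per kb in CD24Mid libraries and 73.7 to 84 in CD24Neg libraries. Cct6a, a zeta subunit with a testis-specific copy in mammals, was the lowest in all 8 libraries, at 91.9 ± 4.75 in CD24Mid and 44.8 ± 3.56 in CD24Neg. The highest subunit exceeded it by 2.08 to 2.14 times in CD24Mid and by 1.72 to 2.18 times in CD24Neg. Which subunit was highest varied between Tcp1, Cct2 and Cct5 in CD24Mid and between Cct2 and Cct4 in CD24Neg, and these levels lay within their spread of each other.

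All 5 mitochondrial chaperones were higher in CD24Mid, beside 35.5% of all genes tested. The chamber and its lid changed most. Hspd1, the HSP60 that forms the matrix chamber, stood at 321, 353, 390 and 401 fragments per kb in CD24Mid, against 103, 111, 95 and 130 in CD24Neg. The lowest CD24Mid library exceeded the highest CD24Neg library by a wide margin, and the change was 3.35-fold (log2 1.74 ± 0.13 SE, limma adjusted p = 1.26e-06). Hspe1, the HSP10 lid of that chamber, had 200, 217, 182 and 191 CPM in CD24Mid and 70.4, 65.9, 50.3 and 70 CPM in CD24Neg. It was 3.08-fold higher in CD24Mid, again without overlap (edgeR adjusted p = 1.15e-06). Hspa9, the matrix HSP70 (mortalin) that pulls proteins in during import, stood at 567 ± 19.6 CPM in CD24Mid, against 301 ± 30.6 CPM in CD24Neg (1.89-fold, edgeR adjusted p = 3.24e-05). Trap1, the mitochondrial HSP90, changed by the same 1.89-fold (edgeR adjusted p = 2.2e-05). Dnaja3, a mitochondrial J protein, changed least, at 101 ± 8.57 CPM in CD24Mid, against 64.7 ± 5.1 CPM in CD24Neg (1.57-fold, edgeR adjusted p = 0.000188). These nuclear genes were higher in CD24Mid while mitochondrially encoded reads were lower there, as given above.

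**Figure D2:**
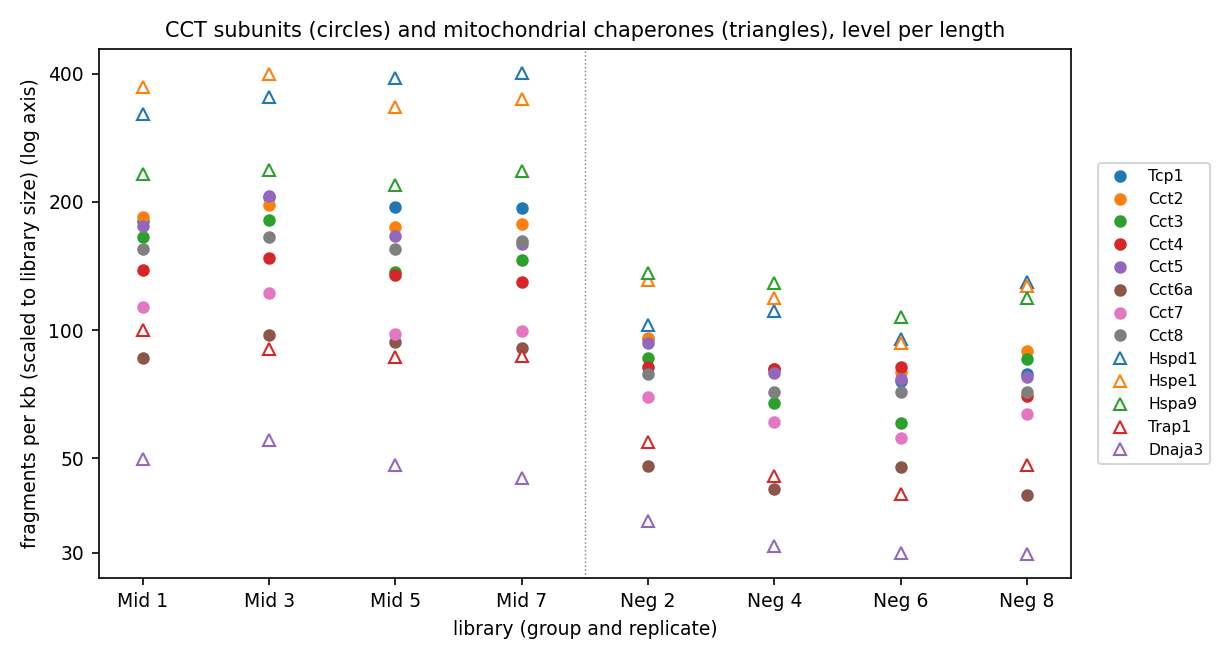
Level of the 8 CCT subunits (circles) and 5 mitochondrial chaperones (open triangles) in each library, in fragments per kb of effective length on a log axis, with CD24Mid libraries on the left and CD24Neg libraries on the right. Each gene is higher in every CD24Mid library than in any CD24Neg library, Cct6a is the lowest circle in all 8, and Hspd1 and Hspe1 lead the triangles in CD24Mid.

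HSP90 and its co-chaperones were all higher in CD24Mid, 6 of 6, beside 35.5% of all genes tested. Hsp90ab1, the constitutive cytosolic HSP90, had 2023, 2282, 2031 and 2016 CPM in CD24Mid, against 683, 635, 560 and 772 CPM in CD24Neg. It was 3.15-fold higher in CD24Mid, with no overlap (log2 1.66 ± 0.14 SE, edgeR adjusted p = 2.23e-06). Hsp90aa1, the inducible HSP90, stood at 156, 212, 277 and 328 fragments per kb in CD24Mid and 56, 73.1, 91 and 125 in CD24Neg. The groups did not overlap, but libraries of 1 group differed more than for Hsp90ab1, and the change was 2.83-fold (log2 1.50 ± 0.28 SE, limma adjusted p = 0.000915). Stip1, the HOP protein that bridges HSP70 and HSP90, had 116, 137, 130 and 124 CPM in CD24Mid and 47.2, 53.8, 43.9 and 50.2 CPM in CD24Neg, a 2.6-fold change (edgeR adjusted p = 8.12e-07). Ahsa1, which activates the HSP90 ATPase, was 2.17-fold higher in CD24Mid (edgeR adjusted p = 3.97e-06). Fkbp4, an immunophilin of steroid receptor complexes, measured 488 ± 34.1 CPM in CD24Mid, against 251 ± 10.2 CPM in CD24Neg, and was 1.94-fold higher in CD24Mid. St13, the HIP protein that steadies HSP70 on its client, was 1.9-fold higher in CD24Mid.

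Per length, by the deposited estimates, the most abundant chaperone transcripts were Hspa8 and Hsp90ab1 in both groups. The place of Hspa8 rests on shared reads, since 25.0% of its estimated reads were unique: on unique reads per kb alone Hspa8 stood at 285 ± 13 CPM per kb in CD24Mid (rank 3) and 184 ± 16.3 in CD24Neg (rank 2), below Hsp90ab1 at 1064 ± 58.4 in CD24Mid and 340 ± 47.2 in CD24Neg. The other levels here are the estimates unless said otherwise. In CD24Mid, Hspa8 stood at 1138 ± 87.3 fragments per kb and Hsp90ab1 at 1062 ± 58.1, which lay within their spread of each other. In CD24Neg, Hspa8 stood at 743 ± 74.4 and Hsp90ab1 at 340 ± 47, and their ranges did not overlap. Hspd1 (366 ± 36.8) and Hspe1 (363 ± 28.1) came next in CD24Mid and did not differ beyond their spread. This also rests on shared reads, since 65.3% of the estimated reads of Hspd1 were unique. On unique reads per kb in CD24Mid, Hspe1 stood at 367 ± 28.4 CPM per kb (rank 2) and Hspd1 at 239 ± 22.7 (rank 5). In CD24Neg the next estimate after Hsp90ab1 was that of Bag1, at 152 ± 17 per kb, beside Fkbp4 at 141 ± 4.75, within their spread of each other. Bag1 itself had about the same level in both groups and held rank 14 in CD24Mid, at 148 ± 21.8 per kb.

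Of the 7 measured cytosolic HSP70 and HSP110 genes, 6 were higher in CD24Mid, beside 35.5% of all genes tested. Among the constitutive ones, changes were smaller than for HSP90. Hspa8, the constitutive HSC70, had 1138, 1241, 1145 and 1027 fragments per kb in CD24Mid and 788, 639, 804 and 742 in CD24Neg. It was 1.53-fold higher in CD24Mid without overlap (log2 0.62 ± 0.13 SE, limma adjusted p = 0.00209). Hsph1, the inducible HSP110 that swaps HSP70 nucleotide, had 62.5, 82, 117 and 121 CPM in CD24Mid, against 28.1, 26.6, 30.1 and 45.4 CPM in CD24Neg. It was 2.93-fold higher in CD24Mid (log2 1.55 ± 0.23 SE, edgeR adjusted p = 0.00014). Hspa4, a constitutive relative of Hsph1, had 210, 234, 271 and 260 CPM in CD24Mid and 161, 182, 210 and 190 CPM in CD24Neg. Those groups met at 210 CPM, and the change was 1.31-fold (edgeR adjusted p = 0.014). Its call was lost without CD24Mid replicate 7 and CD24Neg replicate 8 together (log2 0.37, edgeR adjusted p = 0.0652) and without CD24Neg replicates 2 and 8 together (0.33, edgeR adjusted p = 0.0959).

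Hspa4l and Hspa2, HSP70 relatives best known from testis in mice, were called higher in CD24Mid with overlapping groups. Hspa4l had 24.8, 32.7, 50.2 and 46.4 CPM in CD24Mid and 13.7, 24.2, 28.5 and 25.6 CPM in CD24Neg (log2 0.74 ± 0.26 SE, edgeR adjusted p = 0.0235). The call was lost without CD24Mid replicate 5 (log2 0.59, edgeR adjusted p = 0.0708), without CD24Mid replicate 7 (0.64, edgeR adjusted p = 0.0612) or without CD24Neg replicate 2 (0.60, edgeR adjusted p = 0.0502). Hspa2 was near 1 CPM, with 1.21, 1.07, 1.17 and 1.17 CPM in CD24Mid and 1.14, 0.463, 0.29 and 0.552 CPM in CD24Neg. Its CD24Neg replicate 2 lay within the CD24Mid range. Its call (log2 0.99 ± 0.38 SE, edgeR adjusted p = 0.0365) was lost with DESeq2 (adjusted p = 0.0625). It held by edgeR without CD24Neg replicate 2 and was lost without each of the other 7 libraries, where the log2 fold change was 0.75 to 1.02 and the edgeR adjusted p 0.0567 to 0.0863.

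Hspa1a and Hspa1b are neighbouring, near-identical genes for the inducible HSP70, the classic product of heat shock, and unique reads were 41.6% and 44.5% of their estimated reads. Together they had 246, 299, 196 and 455 fragments per kb in CD24Mid, against 76.4, 105, 53.5 and 278 in CD24Neg. CD24Neg replicate 8 lay above 2 of the 4 CD24Mid libraries, and each group had 1 library well above its others, CD24Mid replicate 7 and CD24Neg replicate 8. Counted as 1 locus on rounded estimated counts, the pair was 2.31-fold higher in CD24Mid (log2 1.20 ± 0.48 SE, edgeR adjusted p = 0.0435, 13147 genes tested). The adjusted p was 0.0883 with DESeq2 and 0.123 by edgeR with no filter on low counts. It was lost by edgeR without CD24Mid replicate 1 (log2 1.29, adjusted p = 0.0587), 3 (1.20, 0.0743) or 7 (0.94, 0.135), and without CD24Neg replicate 2 (1.07, 0.102), 4 (1.18, 0.0876) or 6 (adjusted p = 0.0846). Without CD24Neg replicate 8 the change was 3.9-fold (log2 1.96, edgeR adjusted p = 0.000992), and without that library and CD24Mid replicate 7 it was 3.13-fold (log2 1.65, edgeR adjusted p = 0.00107). CD24Neg replicates 2 and 8 had the highest T lymphocyte sums, whose part in the Hspa1 level was not tested. Without both, the change was 3.79-fold (log2 1.92, edgeR adjusted p = 0.00413).

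Between the copies, Hspa1b had the higher level in all 8 libraries. It exceeded Hspa1a by 1.93 to 2.59 times in CD24Mid and by 1.72 to 2.4 times in CD24Neg, as the deposited estimates divided the shared reads. Alone, Hspa1b passed (log2 1.49 ± 0.48 SE, limma adjusted p = 0.0243, with 66.9% of 13145 genes called by limma and 34.2% called higher in CD24Mid) and Hspa1a did not (1.36 ± 0.60 SE, limma adjusted p = 0.0813). Hspa1a passed without CD24Neg replicate 8 (log2 1.89, limma adjusted p = 0.00184). Hspa1b no longer passed without CD24Mid replicate 1 (1.55, limma adjusted p = 0.0501), 3 (1.49, 0.0544) or 7 (1.26, 0.0652), or without CD24Neg replicate 2 (1.34, 0.0708) or 6 (1.19, 0.0514). Set against Hspa8, the inducible pair made up 17.8%, 19.4%, 14.6% and 30.7% of their summed level per kb in CD24Mid, and 8.84%, 14.1%, 6.24% and 27.2% in CD24Neg. Those shares do not depend on scaling between libraries, and the groups overlapped.

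**Figure D3:**
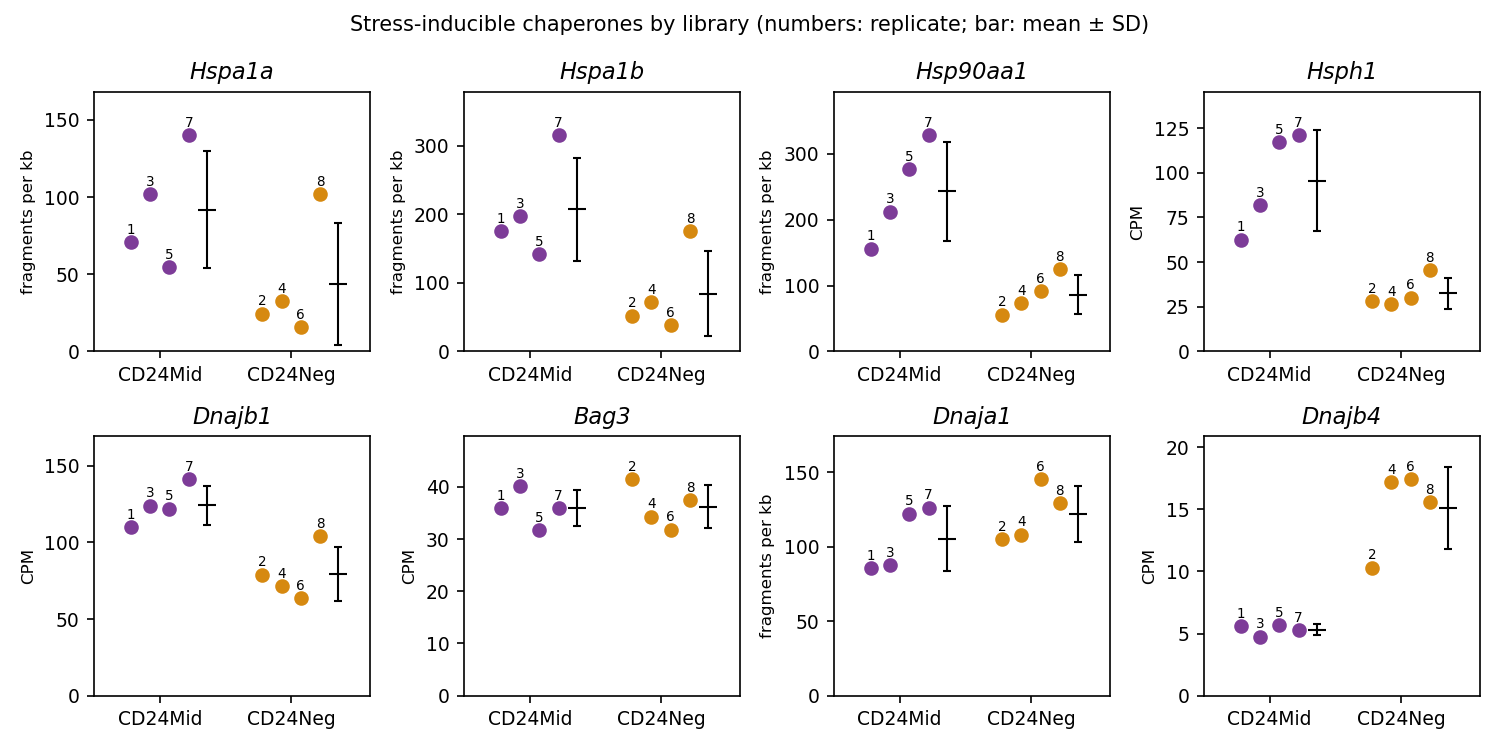
Each panel shows 1 stress-inducible chaperone gene, with a point per library (numbers are replicates), CD24Mid left of CD24Neg, and the group mean ± SD as a bar; the y axis is CPM or, for genes with copies, fragments per kb. CD24Mid replicate 7 and CD24Neg replicate 8 stand highest in their groups for Hspa1a, Hspa1b, Hsp90aa1, Hsph1 and Dnajb1, and Dnajb4 is the 1 gene with every CD24Neg point above every CD24Mid point.

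Stress-inducible and constitutive members were also set side by side as classes. The classes were lists chosen for this report, and no induction was measured. The inducible list held Hspa1a, Hspa1b, Hspb1, Hspb8, Hsph1, Hsp90aa1, Dnaja1, Dnajb1, Dnajb4 and Bag3. All other members except Hsf1 and Hsf2 counted as constitutive, which does not mean that stress cannot induce them. The counts are to be read beside the 69.8% of all genes tested that were called, 35.5% higher in CD24Mid and 34.3% higher in CD24Neg. Of the 8 measured inducible members, 4 were higher in CD24Mid (Hspa1b, Hsp90aa1, Hsph1, Dnajb1), 1 was higher in CD24Neg (Dnajb4) and 3 did not pass, with a median log2 fold change of 0.83. Of the 26 measured constitutive members, 23 were higher in CD24Mid, 1 was higher in CD24Neg (Dnajb6) and 2 did not pass, with a median of 0.97. Within each library, the median log2 of unique reads per effective length over these members was lower for inducible than for constitutive ones, by 1.72, 1.60, 1.15 and 0.82 in CD24Mid and by 1.68, 1.47, 1.94 and 0.39 in CD24Neg. The mean difference was -1.32 ± 0.42 in CD24Mid and -1.37 ± 0.68 in CD24Neg (SD, n = 4 each), so the groups differed by 0.05, less than the spread between replicates. With class means in place of medians it was -1.31 ± 0.25 in CD24Mid and -0.93 ± 0.40 in CD24Neg, a group difference of -0.39, which exceeded the SD in CD24Mid but not that in CD24Neg. Unique reads miss those shared between copies. On the deposited estimates, the difference of medians was -0.92, -0.79, -0.85 and -0.20 in CD24Mid. In CD24Neg it was -1.17, -0.85, -1.55 and 0.20, so inducible members were the higher class in CD24Neg replicate 8. The means were then -0.69 ± 0.33 in CD24Mid and -0.85 ± 0.75 in CD24Neg, a group difference of 0.16, less than either SD.

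The coefficient of variation of CPM over the 4 libraries of a group had a median of 21.7% in CD24Mid and 24.4% in CD24Neg for inducible members, and of 6.95% in CD24Mid and 9.76% in CD24Neg for constitutive members. The widest was Hspa1a, at 40.9% in CD24Mid and 91.9% in CD24Neg. The libraries that stood highest also differed by class. Among the 8 inducible members, CD24Mid replicate 7 was the highest CD24Mid library for 6, and CD24Neg replicate 8 the highest CD24Neg library for 5. Among the 26 constitutive members, CD24Mid replicate 3 was the highest for 19 and CD24Neg replicate 2 for 15. Without CD24Mid replicate 7 and CD24Neg replicate 8, 27 members were higher in CD24Mid and 2 in CD24Neg. Without CD24Neg replicates 2 and 8, the counts were 28 and 2.

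Of 5 cytosolic J proteins, the test called 1 higher in CD24Mid and 2 higher in CD24Neg, beside 35.5% and 34.3% of all genes tested, and left 2 uncalled, with a median log2 fold change of -0.34. Dnajb4, an inducible cytosolic J protein, had 5.58, 4.74, 5.69 and 5.27 CPM in CD24Mid, against 10.3, 17.2, 17.4 and 15.6 CPM in CD24Neg. Every CD24Neg library lay above every CD24Mid library, and the gene was 2.85-fold higher in CD24Neg (log2 -1.51 ± 0.18 SE, edgeR adjusted p = 2.21e-05). It kept that direction and call with upper-quartile normalisation (log2 -1.28, edgeR adjusted p = 5.55e-05) and on unscaled totals (-0.57, edgeR adjusted p = 0.0173). Dnajb1, the HSP40 partner of inducible HSP70, had 110, 124, 122 and 141 CPM in CD24Mid and 79, 71.5, 63.6 and 104 CPM in CD24Neg. It was 1.56-fold higher in CD24Mid with no overlap (edgeR adjusted p = 0.00296). Dnajb6, which binds aggregation-prone polyglutamine proteins, stood at 51.2, 50.6, 51.3 and 47.4 fragments per kb in CD24Mid and 58.5, 54.7, 67.2 and 57.6 in CD24Neg. It was 1.18-fold higher in CD24Neg (log2 -0.24 ± 0.10 SE, limma adjusted p = 0.0453), but -0.02 with upper-quartile scaling and 0.70, higher in CD24Mid, on unscaled totals. The call also failed when any of 7 libraries was left out, all but CD24Neg replicate 4, with log2 fold changes of -0.26 to -0.18 and limma adjusted p of 0.0562 to 0.118.

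Dnaja1 and Dnaja2, the general cytosolic partners of HSC70, did not pass. Dnaja1 had 85.4, 87.4, 122 and 126 fragments per kb in CD24Mid and 105, 108, 145 and 129 in CD24Neg, with overlap (log2 -0.22 ± 0.17 SE, limma adjusted p = 0.265). By edgeR on rounded estimated counts it was called higher in CD24Neg (-0.39, adjusted p = 0.029), and on unscaled totals the limma value was 0.72, higher in CD24Mid. Dnaja2 was level between groups at 145 ± 5.1 CPM in CD24Mid, against 145 ± 4.34 CPM in CD24Neg (log2 -0.01 ± 0.09 SE, edgeR adjusted p = 0.932). Its sign followed the scaling, with 0.21 under upper-quartile normalisation and 0.93 on unscaled totals.

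Of the 3 BAG factors, 1 was higher in CD24Mid, beside 35.5% of all genes tested, and 2 did not pass, with a median log2 fold change of -0.01. Bag2, which blocks the ubiquitin ligase CHIP on HSP70, had 3.49, 4.32, 3.85 and 3.54 CPM in CD24Mid, against 0.38, 0.694, 0.218 and 0.552 CPM in CD24Neg. Every CD24Mid library was above every CD24Neg library, and the change of 8.46-fold (log2 3.08 ± 0.32 SE, edgeR adjusted p = 9.13e-06) was the largest among the chaperones tested. In CD24Neg, Bag2 had only 3, 6, 3 and 5 unique reads, so the size of this change rests on few reads there. Bag1, which links HSP70 to the proteasome, had 160, 170, 123 and 136 CPM in CD24Mid and 172, 163, 144 and 133 CPM in CD24Neg (edgeR adjusted p = 0.716). Bag3, an inducible factor of chaperone-assisted autophagy, had 35.9, 40.1, 31.7 and 35.9 CPM in CD24Mid and 41.4, 34.3, 31.8 and 37.4 CPM in CD24Neg (edgeR adjusted p = 0.942). Both overlapped fully, and both became higher in CD24Mid on unscaled totals (log2 0.88 for Bag1 and 0.93 for Bag3).

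The small heat shock proteins were barely present. Hspb1 (HSP25 in mice) had 28 unique reads over the 4 CD24Mid libraries and 2 over the 4 CD24Neg libraries. The ratio of normalised counts was 6.06, with a 95% exact interval of 1.53 to 52.5 that covers counting error only. Hspb8 had 1 read in CD24Mid and 0 in CD24Neg, where 0 reads allow up to 0.218 to 0.38 CPM per library (3 counts). Neither gene passed the filter on low counts.

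Both heat shock factors were higher in CD24Mid, beside 35.5% of all genes tested. Hsf1, the main activator of the heat shock response, had 39.7, 43.5, 39.6 and 36.8 CPM in CD24Mid, against 19.3, 17.4, 15.8 and 19.4 CPM in CD24Neg. It was 2.23-fold higher in CD24Mid with no overlap (edgeR adjusted p = 3.97e-06). Hsf2, a factor that can form trimers with Hsf1, had 6.01, 5.81, 6.19 and 4.83 CPM in CD24Mid and 2.28, 2.89, 2.25 and 2.76 CPM in CD24Neg (2.25-fold, edgeR adjusted p = 0.000241). The ratio between their transcripts is given below. Hsf1 is controlled mainly by release from chaperones and by modification, so its transcript level is not a measure of its activity.

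Heat shock factors bind heat shock elements, runs of the unit NGAAN in alternating orientation, and RefSeq promoter windows on build GRCm38.p6 were searched for them. A window runs from 250 bases before to 50 bases after a transcription start, and 32 members had at least 1. The motif GAANNTTC, which reads the same on both strands, stood in 7.86% of 32851 windows and for 9.04% of 27025 genes. Among the members it was found for 12 of 32, of which 7 were among the 9 inducible members with a window (Bag3, Dnaja1, Hspa1a, Hspa1b, Hspb1, Hspb8 and Hsph1). The other 2-unit arrangement, TTCNNGAA, also its own reverse complement, stood in 8.52% of windows and for 9.6% of genes. It was found for 7 of 32 members, 2 of them inducible (Dnajb4 and Hsph1). For each motif, the matches of Hspd1 and Hspe1 are the same letters, because their windows overlap. A run of 3 units, GAANNTTCNNGAA or its reverse complement TTCNNGAANNTTC, contains both shorter motifs and stood in 0.603% of windows and for 0.662% of genes. It was found for 4 of 32 members, Hspd1, Hspe1, Hsph1 and Dnajb6, of which 3 were higher in CD24Mid and Dnajb6 was not. A match is a description of these letters and not a site of binding.

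The inducible HSP70 genes are shown first because they are near-identical copies. The last 180 bases before each start, on the minus strand of chr17:34972157-34972336 for Hspa1a and chr17:34959239-34959418 for Hspa1b, were identical at 179 positions. Both carry GAANNTTC, in capitals, 104 to 97 bases before the start.
Hspa1a: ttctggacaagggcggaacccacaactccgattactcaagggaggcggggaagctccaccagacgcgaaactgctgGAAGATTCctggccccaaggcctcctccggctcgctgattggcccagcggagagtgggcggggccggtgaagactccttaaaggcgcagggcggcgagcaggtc
Hspa1b: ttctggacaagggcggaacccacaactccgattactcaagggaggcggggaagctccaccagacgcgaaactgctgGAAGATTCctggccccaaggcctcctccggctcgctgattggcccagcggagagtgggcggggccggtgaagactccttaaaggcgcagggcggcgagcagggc
The mitochondrial pair Hspd1 and Hspe1, the chamber and its lid, start back to back and share 285 bases of their windows. The 150 bases before the start of Hspe1, on the plus strand at chr1:55087998-55088147, hold 2 overlapping 3-unit runs (capitals) 89 to 72 bases before that start. On the other strand the same letters lie 144 to 127 bases before a start of Hspd1.
Hspe1: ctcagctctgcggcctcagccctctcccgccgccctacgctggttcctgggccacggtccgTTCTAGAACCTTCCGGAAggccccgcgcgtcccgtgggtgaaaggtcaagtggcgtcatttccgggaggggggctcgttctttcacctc
Hsph1 and Dnajb6 are shown because both held a 3-unit run, while Hsph1 was higher in CD24Mid and Dnajb6 was not. The stretches are the 100 bases before a start, on the minus strand at chr5:149636337-149636436 for Hsph1 and on the plus strand at chr5:29735798-29735897 for Dnajb6, with matches in capitals. That of Hsph1 shows TTCNNGAA, and its 3-unit run, TTCTGGAAAGTTC, lay 37 to 49 bases after the start.
Hsph1: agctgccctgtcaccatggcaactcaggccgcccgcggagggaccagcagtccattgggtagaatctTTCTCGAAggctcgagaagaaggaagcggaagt
Dnajb6: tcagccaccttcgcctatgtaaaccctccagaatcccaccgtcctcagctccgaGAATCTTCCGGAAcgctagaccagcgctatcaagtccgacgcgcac

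Ratios of paired chaperones within a library do not depend on scaling between libraries, and 7 were computed from unique reads per effective length, with an exact two-sided permutation test over samples. With 4 against 4 libraries the smallest p is 0.0286, and no ratio passed after Benjamini-Hochberg adjustment over the 7. Ratios at that smallest p reached only 0.1 after adjustment, so not passing does not show that the groups were equal. The log2 ratio of Hsph1 to its constitutive relative Hspa4 was -1.72, -1.55, -1.08 and -1.11 in CD24Mid, against -2.73, -2.70, -2.90 and -2.14 in CD24Neg. The groups did not overlap and differed by 1.25, or 2.38-fold (exact p = 0.0286, adjusted p = 0.1). Dnajb1 over Dnaja2, an inducible against a constitutive J protein, was 0.02, 0.14, 0.06 and 0.34 in CD24Mid and -0.53, -0.65, -0.88 and -0.06 in CD24Neg. These also did not overlap and differed by 0.67, or 1.59-fold (exact p = 0.0286, adjusted p = 0.1). In both ratios CD24Neg replicate 8 was the CD24Neg library nearest to CD24Mid.

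The other 5 ratios overlapped between groups. The inducible to constitutive HSP90 ratio, Hsp90aa1 over Hsp90ab1, had a mean log2 of -3.19 ± 0.47 in CD24Mid and -3.00 ± 0.42 in CD24Neg (exact permutation p = 0.543). Unique reads were 49.7% of those of Hsp90aa1, and on the deposited estimates this ratio was -2.18 ± 0.50 in CD24Mid and -2.03 ± 0.47 in CD24Neg. That of the mitochondrial lid to its chamber, Hspe1 over Hspd1, was 0.62 ± 0.23 in CD24Mid and 0.72 ± 0.14 in CD24Neg (exact permutation p = 0.457). Hspd1 has copies elsewhere, and on the deposited estimates, which include shared reads, this ratio was -0.01 ± 0.24 in CD24Mid and 0.10 ± 0.17 in CD24Neg. Hsf2 over Hsf1 was -3.18 ± 0.12 in CD24Mid and -3.16 ± 0.19 in CD24Neg (exact permutation p = 0.829). Bag3 over Bag1 differed by 0.05 and Hspa9 over Hspa8 by 0.29 (exact permutation p = 0.657 and 0.0857).

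**Figure D4:**
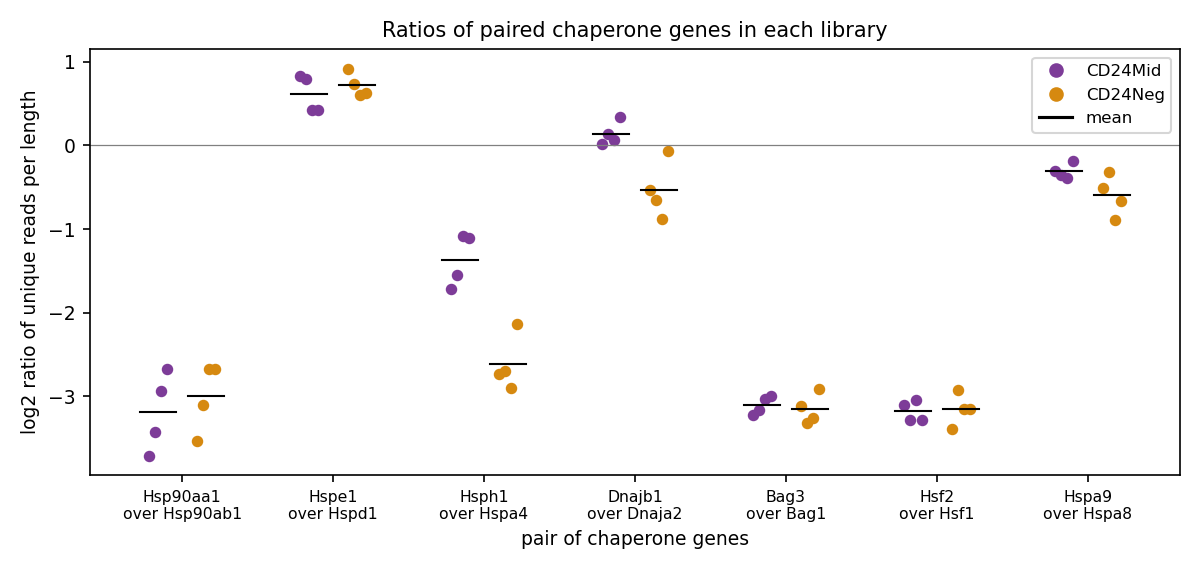
Log2 ratio of unique reads per effective length for 7 pairs of chaperone genes, with a point per library, CD24Mid (purple) left of CD24Neg (orange) and group means as bars. The groups are apart for Hsph1 over Hspa4 and for Dnajb1 over Dnaja2, and overlap for the other 5 pairs.

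For other genes of the folding machinery, counts in each direction are to be read beside the 35.5% of all genes tested that were higher in CD24Mid and the 34.3% higher in CD24Neg. Prefoldin and CCT helpers counted 9, of which 2 were higher in CD24Mid and 2 in CD24Neg while 5 did not pass, with a median log2 fold change of -0.04. Pfdn4 and Pfdn2, prefoldin subunits that deliver actin and tubulin to CCT, were 1.56-fold and 1.52-fold higher in CD24Mid, while Pdcl3, a phosducin-like CCT cofactor, was 1.83-fold higher in CD24Neg (32.9 ± 1.71 CPM in CD24Mid, against 60 ± 5.88 CPM in CD24Neg, edgeR adjusted p = 1.7e-05). Of 16 further HSP90 and HSP70 co-chaperones, 7 were higher in CD24Mid and 5 in CD24Neg, and 4 did not pass, with a median of 0.06. Hspbp1, a nucleotide exchange factor of HSP70, was 3.15-fold higher in CD24Mid (36.3 ± 4.78 CPM in CD24Mid, against 11.6 ± 2.26 CPM in CD24Neg), followed by Ppid at 2.69-fold and Nudc at 2.57-fold. Unc45a, a myosin chaperone, was 1.98-fold higher in CD24Neg, Fkbp8 1.58-fold and Bag4 1.56-fold. On unscaled library totals, where 69.8% of all genes tested were higher in CD24Mid and 12.9% higher in CD24Neg, 14 of these 16 genes and 8 of the 9 prefoldin and CCT helpers were higher in CD24Mid and 0 higher in CD24Neg.

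Of 13 further J proteins, 5 were higher in CD24Mid and 3 in CD24Neg, and 5 did not pass, with a median of -0.05. Dnajc9, a histone chaperone as well as a J protein, had 44.4, 51.7, 43.9 and 45.2 CPM in CD24Mid, against 7.47, 9.95, 8.57 and 10.2 CPM in CD24Neg. It was 5.12-fold higher in CD24Mid (edgeR adjusted p = 1.59e-07). Dnajc2, a ribosome-associated J protein, was 2.43-fold higher in CD24Mid, and Dnajb2, Dnajb12 and Dnajc7 were 1.65-fold, 1.48-fold and 1.41-fold higher in CD24Neg. Of 10 genes of mitochondrial import and quality control, 4 were higher in CD24Mid and 2 in CD24Neg, and 4 did not pass, with a median of 0.27. The matrix protease Lonp1 was 1.91-fold and the disaggregase Clpb 1.87-fold higher in CD24Mid. The inner membrane protease Afg3l2 was 1.58-fold and the unfoldase Clpx 1.45-fold higher in CD24Neg. On unscaled totals, with the shares of all genes just given, 12 of the 13 J proteins and all 10 mitochondrial genes were higher in CD24Mid.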

How the data were processed

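Per the labels' protocols, libraries were made from total RNA of the sorted cells (TruSeq RNA). The submitters' processing notes name Bowtie 0.12.8 and the mouse build NCBIM37. The deposited tables, whose column names are those of MMSEQ, give counts of fragments unique to 1 gene, without normalisation. They also give the authors' deposited log estimate per gene, which includes shared reads, and an effective length. The scale of that estimate is not stated. It was taken to be a natural log of fragments per kb relative to library size, because the deposited unique counts are then recovered, and estimated counts rest on this reading. Strand setting, annotation release and filters: not given in the sources used here. Overlapping and antisense genes therefore cannot be told apart.

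The test on unique counts was that of edgeR 4.0.16 under R 4.3.3 (TMM, filterByExpr, robust quasi-likelihood F test, group alone, Benjamini-Hochberg adjustment over 12840 genes, threshold 0.05). The 8 members with unique reads under 80% of estimated reads (Hspa1a, Hspa1b, Hspb1, Hsp90aa1, Dnaja1, Hspa8, Hspd1 and Dnajb6) were also tested with limma 3.58.1 on the deposited estimates, shifted by the TMM factors. These were 1.335 to 1.42 in CD24Mid and 0.697 to 0.757 in CD24Neg. Counts over lists use edgeR, and both tests gave the same call for the 36 members tested. Hspa1a and Hspa1b were summed into 1 locus on rounded estimated counts. Ratios used SciPy 1.17.1, with 0.5 added to each count. Hspb1 over Hspb8 was left out for lack of reads. Alternatives were DESeq2 1.42.0, other scalings, no filter, estimated counts, mitochondrially encoded genes left out, and leaving out libraries. The fit was tested on simulated counts with known changes. Within a group, no library repeated another (lowest chi-square per degree of freedom 10.83).

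The members and lists were chosen with earlier results of these data known. Members were named by a rule: both Hspa1 copies, the largest change each way in each role, members that go against their class or lose a call under another scaling, and the heat shock factors; further genes were limited to 3 per list and direction. Other members are given for completeness. Intervals and floors cover counting error only. Promoter windows are from RefSeq. Hsp90aa1, Hspa8, Hspa9, Hsp90ab1, Cct4, St13 and Hsf1 had no entry. The reference is of a later build than the files and was not used for their positions. The plasma and B cell marker list is reported here in part.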

Additional observations from a re-analysis of the deposited data

Results flagged for a closer look

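In 72 sets of 4 libraries (36 chaperone genes in each group), the highest or lowest library was set against the others, and 2 stood further out than Dixon's 95% critical value allows. Chance gives about 1 in 20 such sets. Hsp90ab1 stood at 2282 CPM in CD24Mid replicate 3, against 2016 to 2031 CPM in the other CD24Mid libraries. Fkbp4 stood at 539 CPM in the same library, against 466 to 476 CPM in the others. CD24Mid replicate 3 was the highest CD24Mid library for 19 of 26 constitutive members. Both genes kept their direction and call without it.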

How the results depend on the processing

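The number of members higher in CD24Mid was 26 to 35 over the alternatives, against 29, and 1 member rather than 2 was higher in CD24Neg with upper-quartile scaling, on unscaled totals and with no filter, and 3 with estimated counts and without CD24Mid replicate 7. Over all genes tested, unscaled totals gave 8959 calls toward CD24Mid and 1659 toward CD24Neg. Of the members with copies, 7 rather than 4 were then higher in CD24Mid; the 1 higher in CD24Neg became 2 by edgeR on rounded estimated counts, 0 with upper-quartile scaling, 0 on unscaled totals, and 0 to 1 with a library left out. The log2 fold change of the Hspa1 locus no longer passed with no filter (1.26) or DESeq2 (1.22), and ran from 0.94 to 1.96 with a library left out. The group difference of the class contrast ran from -0.14 to 0.38 with a library left out. The cause of these changes was not tested. Log2 fold changes that did not pass changed sign around 0: Dnaja1 to 0.00 (upper-quartile) and 0.72 (unscaled totals); Bag3 to 0.21, 0.93, 0.01 (DESeq2), 0.09 (no filter), 0.02 (mitochondrially encoded genes left out), 0.00 (without CD24Mid replicate 7 and CD24Neg replicate 8) and 0.14 (without CD24Neg replicates 2 and 8); Dnaja2 to 0.21, 0.93, 0.00, 0.09 and 0.02; Bag1 to 0.17, 0.88 and 0.04 (no filter). Dnajb6, which passed, turned to 0.70 on unscaled totals. With a library left out, log2 fold changes ran from -0.06 to 0.09 for Bag3, from -0.03 to 0.06 for Dnaja2 and from -0.13 to 0.03 for Bag1, and the group differences of the log2 ratios from -0.01 to 0.13 for Bag3 over Bag1 and from -0.10 to 0.05 for Hsf2 over Hsf1. That of Hsf2 over Hsf1 was 0.01 on the deposited estimates. No paired analysis was run, because CD24Mid and CD24Neg libraries share no replicate number and no label ties a library of 1 group to the other. The numbers alternate between the groups, and whether consecutive libraries were collected together is not stated. All tests treated the groups as unpaired. Leaving out libraries 2 and 8 or 7 and 8, and scaling the estimates otherwise, were chosen after seeing the data. Depth limits Hspb1, Hspb8 and Hspa2, which had few reads, and Bag2, which had few in CD24Neg.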

Other observations

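Relatives of the chaperones outside the set, and genes often induced while tissue is taken apart, gave these values. Of 8 measured further small and large heat shock proteins, 1 was higher in CD24Mid and 2 in CD24Neg, and 5 did not pass (edgeR). Among all genes tested, 35.5% were higher in CD24Mid and 34.3% higher in CD24Neg. Hspa12a, a distant HSP70 relative, had 0.582, 0.418, 0.418 and 0.603 CPM in CD24Mid, against 7.22, 8.8, 8.13 and 12.9 CPM in CD24Neg. It was 18.1-fold higher in CD24Neg with no overlap (edgeR adjusted p = 3.52e-07). Hsbp1, which binds and restrains heat shock factor trimers, was 1.53-fold higher in CD24Neg (47.7 ± 6.77 CPM in CD24Mid, against 73 ± 0.994 CPM in CD24Neg, SD, n = 4 each), the opposite direction to Hsf1. Hspb6, a small heat shock protein, was 2.11-fold higher in CD24Mid. Among the chaperones of the endoplasmic reticulum, Hspa5 stood at 572 ± 128 CPM in CD24Mid, against 604 ± 115 CPM in CD24Neg, and Hsp90b1 at 623 ± 149 CPM in CD24Mid, against 465 ± 88.5 CPM in CD24Neg, and neither passed (edgeR adjusted p = 0.731 and 0.0748).

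Of 14 immediate early genes, which respond quickly to cell dissociation, 3 were higher in CD24Mid and 5 in CD24Neg, and 6 did not pass. Beside these, 35.5% of all genes tested were higher in CD24Mid and 34.3% higher in CD24Neg. On unscaled totals the counts were 10 and 1, beside 69.8% and 12.9% of all genes tested. Nr4a1, an orphan nuclear receptor, was 3.92-fold higher in CD24Mid (28.5 ± 8.56 CPM in CD24Mid, against 7.37 ± 2.8 CPM in CD24Neg), followed by Fosb at 2.11-fold and Egr1 at 1.78-fold. Ier3 was 2.52-fold, Junb 2.19-fold and Zfp36 1.65-fold higher in CD24Neg. Fos stood at 861 ± 234 CPM in CD24Mid, against 704 ± 155 CPM in CD24Neg and did not pass (edgeR adjusted p = 0.276). CD24Mid replicate 7 and CD24Neg replicate 8, the libraries with the highest Hspa1 level, were each the highest of their group for 2 of the 14 genes: Klf6 in both (166 CPM in CD24Mid replicate 7 and 237 CPM in CD24Neg replicate 8), Ier3 in CD24Mid replicate 7 and Jun in CD24Neg replicate 8. CD24Mid replicate 5 was the highest of its group for 9 and CD24Neg replicate 2 for 12. The part of tissue dissociation in the chaperone levels was not tested. The metallothioneins Mt1 and Mt2 did not pass (edgeR adjusted p = 0.349 and 0.681).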
